A study of Mus musculus with 24 samples.

Results

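Peak lists of H3K4me1, histone H3 with a single methyl group on lysine 4, were compared between Kdm6a-mutant and control lines of mouse small cell lung cancer. The comparison holds 4 of the 24 samples of the series, chosen as all H3K4me1 libraries, with 1 chromatin immunoprecipitation sequencing (ChIP-seq) library and 1 broad-peak list per line. The mutant lines 236L and 236R grew out of sgKdm6a RPP tumours, and the control lines 159-1 and 1014 out of sgControl RPP tumours. In the RPP model the tumour suppressor genes Rb1, Trp53 and Rbl2 are the engineered ones, so all 4 lines share those alleles and differ by the guide RNA of the tumour. Cells were at early passage, untreated, and had been plated in ultra-low attachment plates, in a protocol that names the other marks and not H3K4me1. The labels give no age or sex of the mice, and they do not state whether 236L and 236R stem from different mice, so the spread between lines may be partly technical and a p-value measures only that spread. Each line is a single culture, and cells other than tumour cells in it are not described by the labels.

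Monomethylation of H3K4 marks enhancers and the shoulders of active promoters. It is placed mainly by the methyltransferases KMT2C and KMT2D, whose complexes hold KDM6A as a subunit, and KDM6A also removes methyl groups from H3K27, the residue that the Polycomb complex PRC2 methylates to keep genes silent. Small cell lung cancer is in most tumours a neuroendocrine cancer. The series title links KDM6A to plasticity between its subtypes, so the question addressed here is where H3K4me1 differs in lines that carry the Kdm6a mutation.

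The stretches just before gene starts show what kind of sequence lay under peaks that differed between the groups. Of the 24 genes named by rule below, 21 have a start in the RefSeq promoter table (GRCm38.p6, the assembly of mm10), and at 6 of these the 250 bases before the start were more than 50% covered in both lines of one group and in neither line of the other. Hoxd13, Nkx2-3, Hoxa2 and En1 are homeobox genes, which encode patterning transcription factors, and Hrh3 encodes the presynaptic histamine receptor H3. Peaks covered more than 50% of these 5 stretches in both mutant lines and in no control line. Nppa encodes the atrial natriuretic peptide, and its stretch was covered in both control lines and in no mutant line. The 6 stretches follow 5′ to 3′ in the direction of transcription, in lower case, with each CG dinucleotide, the site of DNA methylation, in capitals.
Hoxd13, chr2:74667975-74668224, plus strand: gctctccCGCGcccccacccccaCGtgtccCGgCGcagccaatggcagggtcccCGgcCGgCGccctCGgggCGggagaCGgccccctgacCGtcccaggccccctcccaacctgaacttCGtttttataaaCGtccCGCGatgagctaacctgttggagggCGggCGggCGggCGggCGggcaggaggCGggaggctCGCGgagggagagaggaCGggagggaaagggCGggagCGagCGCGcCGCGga
Nkx2-3, chr19:43612075-43612324, plus strand: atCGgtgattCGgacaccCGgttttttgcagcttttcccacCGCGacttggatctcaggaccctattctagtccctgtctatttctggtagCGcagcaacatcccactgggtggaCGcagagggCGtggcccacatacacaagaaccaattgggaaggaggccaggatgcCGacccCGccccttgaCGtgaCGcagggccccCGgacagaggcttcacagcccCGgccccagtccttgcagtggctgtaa
Hoxa2, chr6:52164832-52165081, minus strand: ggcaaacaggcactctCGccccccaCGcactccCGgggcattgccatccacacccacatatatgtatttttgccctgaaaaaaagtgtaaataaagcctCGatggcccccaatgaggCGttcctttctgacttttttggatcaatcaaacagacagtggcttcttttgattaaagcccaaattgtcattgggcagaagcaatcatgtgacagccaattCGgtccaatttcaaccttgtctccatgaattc
En1, chr1:120602237-120602486, plus strand: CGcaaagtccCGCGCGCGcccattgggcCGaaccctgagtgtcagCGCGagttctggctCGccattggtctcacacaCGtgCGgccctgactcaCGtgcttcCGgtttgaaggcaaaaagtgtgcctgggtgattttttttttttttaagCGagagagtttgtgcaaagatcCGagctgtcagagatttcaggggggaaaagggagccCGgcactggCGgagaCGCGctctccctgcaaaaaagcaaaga
Hrh3, chr2:180104408-180104657, minus strand: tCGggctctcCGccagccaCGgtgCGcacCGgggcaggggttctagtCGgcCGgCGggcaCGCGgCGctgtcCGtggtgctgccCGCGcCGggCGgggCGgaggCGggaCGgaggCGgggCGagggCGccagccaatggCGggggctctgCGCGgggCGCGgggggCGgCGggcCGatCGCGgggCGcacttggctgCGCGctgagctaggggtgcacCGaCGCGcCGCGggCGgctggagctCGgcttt
Nppa, chr4:148000472-148000721, plus strand: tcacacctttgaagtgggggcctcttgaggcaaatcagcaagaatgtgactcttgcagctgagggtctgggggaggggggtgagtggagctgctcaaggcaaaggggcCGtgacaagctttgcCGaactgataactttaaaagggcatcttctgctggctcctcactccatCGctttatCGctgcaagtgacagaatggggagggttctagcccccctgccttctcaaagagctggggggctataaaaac

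At Hoxd13, Nkx2-3 and En1, 250 of 250 bases were covered in 236L and in 236R. In 159-1 and 1014, 0 and 70 bases were covered at Hoxd13, and 0 in both control lines at Nkx2-3 and En1. The Hoxa2 stretch had 250 and 128 bases covered in 236L and 236R, against 0 in 159-1 and 1014. At Hrh3 all 250 bases were covered in both mutant lines and a minor part, 71 and 69 bases, in 159-1 and 1014. Nppa showed the reverse, with 0 bases in both mutant lines and 250 in both control lines. These 6 sequences differ widely in CG content, with 31 CG at Hoxd13, 14 at Nkx2-3, 6 at Hoxa2, 19 at En1, 42 at Hrh3 and 4 at Nppa.

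The library of 236L stood far apart from the other 3, and values are therefore given per line and the counts also for 236R alone against both control lines, a comparison that for bins near gene ends, gene lists and miRNA hairpins was added after the data were seen. In bins of 1 kb, called marked at a cover of 50% or more, 250996 bins were marked in any line. Of the 114480 bins marked in 236L, 70967 (62.0%) were marked in no other line. That share was 19.5% in 236R, 11.5% in 159-1 and 20.1% in 1014. Another 38517 bins were marked in 236R and both control lines and not in 236L, where the same count for bins missing from a single other line was 5358 in 236R, 3271 in 159-1 and 3346 in 1014. Of the bins marked in either line of a pair, 236L and 236R shared 16.5%, although both carry the mutation. 236L shared 14% with 159-1 and 14.6% with 1014, while 236R shared 44.2% and 39.8% with the same control lines, and the control lines shared 56.6% with each other. By this measure 236R lay nearer to the control lines than to 236L.

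**Figure D1:**
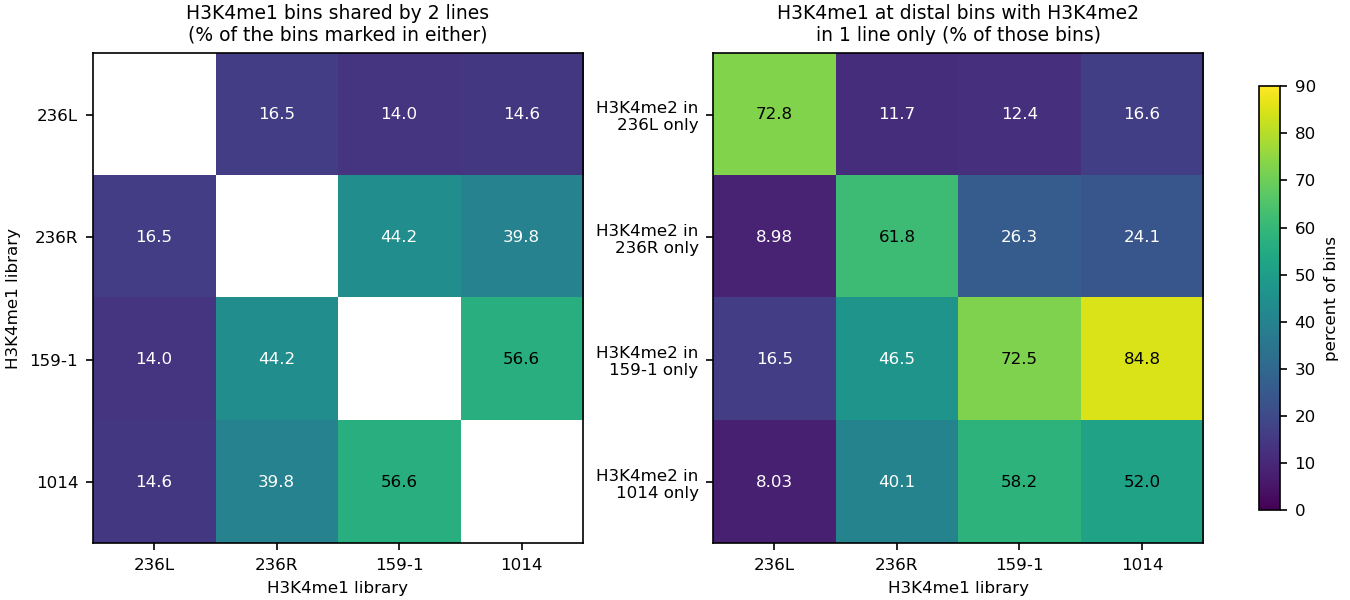
Left, 1 kb bins with H3K4me1 shared by each pair of lines, as a percent of the bins marked in either line. Right, the percent of distal 1 kb bins with H3K4me2 in a single line (rows) that carry H3K4me1 in each line (columns). The H3K4me2 rows of 159-1 and 1014 follow the sample labels, with which the deposited list names disagree. The 236L row and column on the left stay between 14 and 16.5%, and on the right 72.8% of the H3K4me2 bins found in 236L only carry H3K4me1 in 236L.

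The H3K4me2 list of the same line moved with this difference. Away from gene ends, 15937 bins had H3K4me2 in 236L only, and H3K4me1 lay at 72.8% of them in 236L, 11.7% in 236R, 12.4% in 159-1 and 16.6% in 1014. For the 5454 distal bins with H3K4me2 in 236R only, the shares were 8.98% in 236L, 61.8% in 236R, 26.3% in 159-1 and 24.1% in 1014. At bins chosen in this way the H3K4me1 and H3K4me2 lists of each mutant line overlapped more with each other than with those of the other mutant line. Over all 34713 distal bins with H3K4me2 in 236L the contrast was smaller, with H3K4me1 at 61.5% in 236L and 39.1% in 236R, against 32.3% in 159-1 and 33.7% in 1014. For the control lines the order did not follow the labels. Bins with H3K4me2 only in the list labelled 159-1 carried H3K4me1 at 72.5% in 159-1 and 84.8% in 1014, and those only in the list labelled 1014 at 58.2% in 159-1 and 52.0% in 1014. The deposited names of these H3K4me2 lists carry the other line, so which control line each belongs to is uncertain, and H3K4me2 values of a single control line are those of the list labelled so. In H3K4me2 itself, 236L and 236R shared 49.3% of the bins marked in either.

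Cell type markers also set 236L apart from its label of small cell lung cancer. The 20 neuroendocrine granule and peptide genes had on average 3.84% of their windows (gene body with 10 kb on each side) covered in 236L and 15.3% in 236R, against 14.1% in 159-1 and 16.7% in 1014. Chga, which encodes the granule protein chromogranin A, had 2.74 and 15.1 kb in 236L and 236R, against 11.3 and 11.9 kb in 159-1 and 1014. At the neural adhesion gene Ncam1 the mutant lines 236L and 236R had 1.72 and 21.8 kb and the control lines 159-1 and 1014 had 17.8 and 27.3 kb. The synaptic vesicle gene Syp went the other way, with 3.64 and 4.83 kb in 236L and 236R, against 1.97 and 1.07 kb in 159-1 and 1014.

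Most genes of the macrophage list showed the mirror image. The 24 genes of that list had 44.5% of their windows covered in 236L and 12.6% in 236R, against 17.6% in 159-1 and 18.2% in 1014, with summed lengths of 363, 81.8, 109 and 114 kb in the same order of lines. All 24 had some cover in 236L, against 19 in 236R, 18 in 159-1 and 20 in 1014. The macrophage surface receptor gene Adgre1 had 17.2 kb in 236L and 0 kb in 236R, 159-1 and 1014, and the dendritic cell and macrophage integrin gene Itgax (8.03 kb) and the scavenger receptor gene Msr1 (8.19 kb) were likewise covered in 236L alone. Spi1, the master transcription factor of myeloid cells, had 34.2 kb in 236L and 4.77 kb in 236R, against 4.39 kb in 159-1 and 5.63 kb in 1014. Csf1r, the receptor gene for macrophage growth factor, had 27.7 kb in 236L and 0.239 kb in 236R, against 2.22 and 2.12 kb in 159-1 and 1014. C1qa went the other way. It had 13.8 and 10.9 kb in 236L and 236R, against 16.9 and 19.2 kb in 159-1 and 1014. At Lyz2 the mutant lines had 13.5 and 1.48 kb and the control lines 10.7 and 8.85 kb. By the 2 kb call described below, 22 macrophage genes had more in 236L alone (91.7%) and 1 had less (4.17%), where all genes had 29.7 and 15.2%. H3K4me2 covered 29.2 and 9.82% of the macrophage windows in 236L and 236R, against 12.4 and 12.5% in 159-1 and 1014. The part of such cells in the results was not tested. The 15 lymphocyte genes had 12.8% of their windows covered in 236L and 6.45% in 236R, against 6.17% in 159-1 and 7.99% in 1014, and the 15 fibroblast and endothelial genes 7.59 and 8.85% in the mutant lines, against 7.09 and 7.06% in the control lines. By the 2 kb call described below, 10.1% of all genes had more and 12.6% had less in 236R alone. With both mutant lines the shares were 5.3 and 7.45%. In 236R alone the members with more and with less numbered 1 and 6 of the macrophage genes (4.17 and 25.0%). They numbered 0 and 1 of the lymphocyte genes (0 and 6.67%), and 4 and 2 of the fibroblast and endothelial genes (26.7 and 13.3%). With both mutant lines they numbered 1 and 1, 0 and 0, and 1 and 1 in the same order of lists. In the lung epithelial list of 17 genes, with 0 and 1 (1 and 1 in 236R alone), the means were 12.4 and 20.4% in 236L and 236R, against 18.7 and 22.6% in 159-1 and 1014.

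The lists held 71675 peaks in 236L and 72199 in 236R, against 82915 in 159-1 and 88582 in 1014. Merged peaks covered 119.8 and 109 Mb in 236L and 236R, against 119 and 135 Mb in 159-1 and 1014, so the groups overlapped in total cover (difference -12.2 Mb, exact two-sided permutation p = 0.667, where 2 lines against 2 can give no p below 0.33). At the Kdm6a locus H3K4me1 covered 1.67 kb in 236L and 0 kb in the other 3 lines, and no KDM6A list of the mutant lines was used, so these peaks give no check of the mutation. The genes engineered in all 4 lines were covered in each, Rb1 over 6.83 and 4.79 kb in 236L and 236R, against 3.55 and 5.81 kb in 159-1 and 1014, and Trp53 over 7.81 and 5.59 kb, against 3.45 and 4.65 kb. Chromosome X held 1.41 and 1.18% of the cover in 236L and 236R, against 0.474 and 0.515% in 159-1 and 1014, and a difference in sex chromosomes cannot be told apart from genotype here. The authors' peak folds had a median of 3.84 and 3.87 in the mutant lists and 3.63 and 3.60 in the control lists. No read counts come with the peaks, which leaves the sequencing depth unknown, so fewer or shorter peaks and a shallower library cannot be told apart. Likewise, fewer cells of a type and less mark per cell cannot be told apart in bulk libraries.

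In the mutant lines more of the H3K4me1 lay near gene ends. Within 2.5 kb of an end of a protein-coding gene lay 24.8% of the cover in 236L and 24.2% in 236R, against 17.8% in 159-1 and 16.3% in 1014. The groups did not overlap in this share, which averaged 24.5 ± 0.440% in mutant lines and 17.0 ± 1.02% in control lines (SD, n = 2 each), a difference of 7.46 percentage points (exact two-sided permutation p = 0.33, the smallest possible). In absolute length, 29.7 and 26.4 Mb lay near gene ends in 236L and 236R, against 21.1 and 22 Mb in 159-1 and 1014, and farther away 90.1 and 82.8 Mb, against 97.7 and 113 Mb. Both lengths separated the groups, in opposite directions. The share within gene bodies did not, at 64.6 and 56.9% in 236L and 236R, against 61.1 and 62.1% in 159-1 and 1014 (exact two-sided permutation p = 1.0). Although 236L and 236R shared few distal bins (11.8% of those marked in either), they shared 34.2% of the bins near gene ends. This rise was not particular to the mutant pair. With 159-1 and 1014, 236L shared 11.3 and 12.3% of the distal bins and 25.4 and 24.6% of those near gene ends. Near gene ends 236R shared 46.9% with 159-1 and 43.0% with 1014, more than with 236L. The median merged peak was wider in the mutant lines, at 1041 and 1035 bp in 236L and 236R, against 921 and 929 bp in 159-1 and 1014 (exact two-sided permutation p = 0.33). The difference of 113 bp shrank to 25.5 bp with peaks of q at most 0.001 alone, and that of the share near gene ends to 3.75 points within 1 kb of an end.

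Around 21238 gene start positions, the share of starts with a peak was highest just inside the gene, at 35.1% in 236L and 35.1% in 236R, both 1.25 kb downstream, against 24.3% at 1.25 kb in 159-1 and 22.9% at 1.50 kb in 1014. Right at the start all 4 lines had a dip, to 21.7 and 19.8% in 236L and 236R, against 14.5 and 14.3% in 159-1 and 1014. At 1 kb upstream the shares were 26.3 and 24.5% in the mutant lines and 17.0 and 17.6% in the control lines. Farther out the lines no longer fell into groups. At 5 kb downstream 236R (8.62%) lay below both control lines (9.82% in 159-1 and 11.6% in 1014) and 236L (15.6%) above them.

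**Figure D2:**
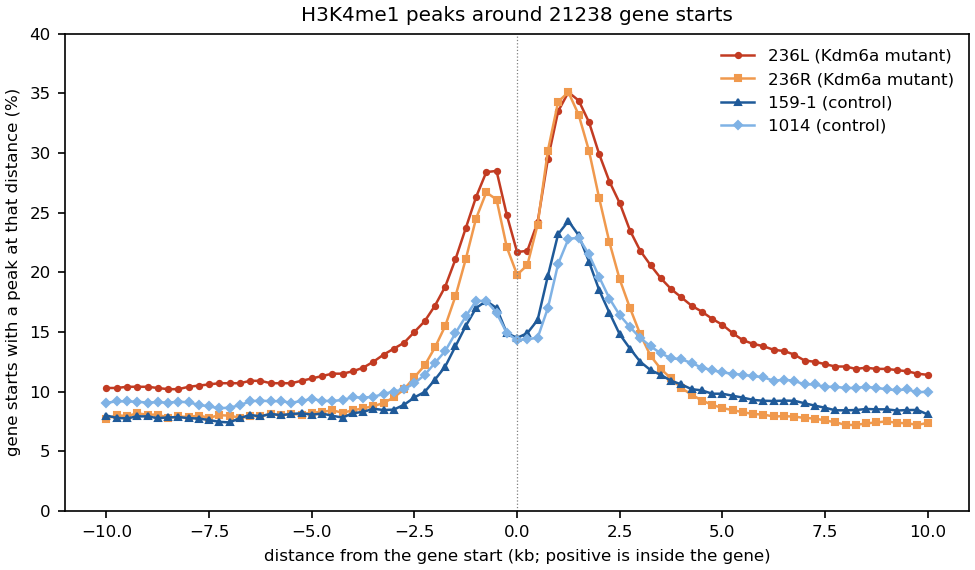
Percent of 21238 gene start positions with an H3K4me1 peak at each distance from the start, in steps of 0.25 kb, for each line. Both mutant lines peak at 35.1%, above the 24.3% and 22.9% of the control lines, and the 4 curves lie close together beyond about 5 kb upstream.

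Bins that separated the groups lay in different places. 7322 bins (2.92% of all marked bins) were marked in both mutant lines and in neither control line, and 25410 bins (10.1%) were shared by the control lines and absent from the mutant lines. A gene end was near for 53.3% of the mutant-only bins, for 9.78% of the control-only bins and for 18.5% of all marked bins. Without 236L the contrast had the same direction, with 29.8% of 27586 bins marked in 236R and in no control line near a gene end, compared with 11% of 30768 bins marked in both control lines and not in 236R. Mutant-only bins carried H3K4me2 at 68.2 and 62.5% in 236L and 236R, against 48.8 and 48.5% in 159-1 and 1014. Over all marked bins these shares were 20.2 and 20.0%, against 24.7 and 24.6%. Bins marked in all 4 lines had 61.9 and 58.8%, against 72.3 and 68.6%. Control-only bins carried little H3K4me2 in the mutant lines, with 2.03 and 2.41% in 236L and 236R. In 159-1 and 1014 they carried it at 20.1 and 17.5%, nearer to the shares of all marked bins. The repressive mark H3K27me3 lay at 9.38 and 8.66% of the mutant-only bins in 236L and 236R, against 9.97 and 14.9% in 159-1 and 1014. Over all marked bins the H3K27me3 shares were 3.12 and 2.53%, against 2.99 and 6.2%. KDM6A peaks of the control lines lay at 14.5% (159-1) and 12.6% (1014) of the mutant-only bins. They lay at 5.00 and 3.78% of the control-only bins and at 8.35 and 6.57% of all marked bins. All 4 lines marked 17049 bins, of which 37.2% lay near a gene end.

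Gene starts repeated this pattern. Of 17492 protein-coding genes with a start in the RefSeq table, the 300 bases around the start (250 before and 50 after) were at least 50% covered at 3788 genes in 236L and 3374 in 236R, against 2315 in 159-1 and 2291 in 1014. Both mutant lines and no control line marked 578 starts (3.3%), while both control lines and no mutant line marked 171 (0.978%). The mutant-only starts were rich in CG, with at least 10 CG in the 300 bases at 80.3% of them. That share was 18.1% of the control-only starts, 57.2% of all starts and 74.8% of the 864 starts marked in all 4 lines. So CG richness was not particular to the mutant-only starts. For 236R alone, 1175 starts were marked there and in no control line and 267 in both control lines and not in 236R, of which 75.7% and 30.3% had at least 10 CG. H3K4me2 lay at 81.1% of the mutant-only starts in both control lines, compared with 60.2% of all starts, and H3K27me3 at 14.7%, compared with 5.93%. At the starts marked in all 4 lines both shares were higher, 91.4% for H3K4me2 and 26.9% for H3K27me3. The motif CAGCTG, which reads the same on both strands and is an E-box, the kind of site that basic helix-loop-helix factors bind, was present in 17.6% of the mutant-only, 26.3% of the control-only and 15.1% of all start windows.

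Per gene, 1160 of 21887 protein-coding genes (5.3%) had 2 kb or more of extra H3K4me1 in the lower mutant line relative to the higher control line, and 1630 (7.45%) had 2 kb or more of a deficit in the higher mutant line relative to the lower control line. These are descriptions without a test, since 2 lines against 2 cannot give an exact p under 0.33. Which direction was the more frequent depended on the peaks kept: at equal covered length in every line 1732 genes had more and 1298 had less, and with peaks of q at most 0.001 alone 1647 had more and 1171 had less. Merging overlapping windows left 752 loci with more and 1243 with less. With 236R as the only mutant line, 2214 genes (10.1%) had more and 2768 (12.6%) had less. Genes with less were long, with a median gene length of 49.7 kb, compared with 14 kb for genes with more and 17.2 kb for all genes. Chromosome 19 held 8.97% of the genes with more and 3.22% of all genes, and in 159-1 its cover was low, at 1.36 Mb, where 236L had 4.19 Mb, 236R had 3.27 Mb and 1014 had 3.77 Mb. The part of that library in these genes was not tested. On chromosome 4 the cover was 8.54 and 8.88 Mb in 236L and 236R, against 10.9 and 11.6 Mb in 159-1 and 1014. That chromosome held 10.4% of the genes with less, 6.55% of those with more and 6.07% of all genes. Nppa, Wnt4, Ssbp3, Mycl, Ephb2, Kdm1a and Phc2, described below with less, lie there, as do Orm1 and Ifnz with more. The part of chromosome 4 in these genes was not tested. A gene just past the 2 kb threshold was the kinase gene Map2k3, with 10.6 and 8.00 kb in 236L and 236R, against 6.00 and 4.69 kb in 159-1 and 1014, and just short of it was the acetyltransferase gene Naa80, with 13.4 and 11.1 kb, against 7.60 and 9.14 kb.

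The test across all genes, limma on log2(kb + 1) for the 15237 genes with a mean of at least 1 kb, called 0 genes higher (0%) and 0 lower (0%) at a Benjamini-Hochberg adjusted p under 0.05. At an unadjusted p under 0.05 it had 879 genes higher and 620 lower in the mutant lines (9.84% of those tested), and the smallest adjusted p was 0.483. The median log2 difference over the tested genes was 0.20, and 0.04 without 236L. The verb "had" in the gene descriptions below therefore stands for separated lines, not for a passed test.

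Of the 12 named genes with more H3K4me1, ranked by the share of the window that separates the groups, 7 encode homeobox factors and 5 do not. Hoxa9 (chromosome 6, 52223097 to 52227370, mm10), a regulator of posterior patterning and of blood progenitors, had 13.3 kb in 236L and 11.9 kb in 236R, against 0 kb in 159-1 and 1014 (log2 difference on the kb + 1 scale 3.76, SE 0.42, limma adjusted p = 0.483). Its window of 24.3 kb stayed covered by H3K27me3 over 21.3 and 23.3 kb in 236L and 236R, against 23.5 and 24.3 kb in 159-1 and 1014. So the H3K4me1 peaks at Hoxa9 lay within a window where peaks of the repressive mark were also called in all 4 lines. Hoxd13 (chromosome 2, 74668225 to 74671603), a regulator of limb and hindgut development, had 9.39 and 9.33 kb in 236L and 236R, against 0 and 0.567 kb in 159-1 and 1014. H3K27me3 at Hoxd13 covered 9.52 and 13.7 kb in 236L and 236R, against 21.4 and 23.4 kb in 159-1 and 1014. Nkx2-3, a homeobox factor of gut and spleen, had 8.57 and 9.03 kb in the mutant lines 236L and 236R, against 0 and 0.658 kb in the control lines 159-1 and 1014 (log2 difference 2.93, SE 0.48, limma adjusted p = 0.483).

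Other homeobox genes behaved alike. Hoxa2, which patterns the hindbrain, had 7.83 and 9.23 kb in 236L and 236R, against 0 and 0.739 kb in 159-1 and 1014. En1, a factor of the midbrain and hindbrain boundary, had 7.88 and 7.55 kb in the mutant lines, against 0.422 and 0.827 kb in the control lines. For Lbx1, a factor of muscle precursors and spinal cord, the values were 11.7 kb in 236L and 14.8 kb in 236R, against 3.68 kb in 159-1 and 4.13 kb in 1014. Hlx, a factor of the visceral mesenchyme, had 11.4 and 10.9 kb in 236L and 236R, against 3.43 and 2.95 kb in 159-1 and 1014. At each of these 4 genes both mutant lines lay above both control lines by 6 kb or more. The remaining named genes with more were no transcription factors. Orm1 encodes an acute-phase plasma protein and had 12.0 and 11.8 kb in 236L and 236R, against 2.80 and 3.03 kb in 159-1 and 1014. Fgfbp3 encodes a carrier of fibroblast growth factors and had 8.99 and 8.03 kb, against 0 and 1.41 kb. Fau encodes a fusion of a ubiquitin-like protein with a ribosomal protein and had 16.5 and 13.5 kb, against 3.23 and 7.45 kb. The mRNA export gene Nxt1 had 9.27 and 8.11 kb in the mutant lines, against 1.19 and 2.20 kb in the control lines. Ifnz, an interferon gene, had 19.3 and 15.5 kb in 236L and 236R, against 9.57 and 8.63 kb in 159-1 and 1014, but it belongs to a family of similar copies, so its peaks are uncertain. Nkx2-3, Lbx1, Fgfbp3 and Fau lie on chromosome 19, where the 159-1 list is short.

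**Figure D3:**
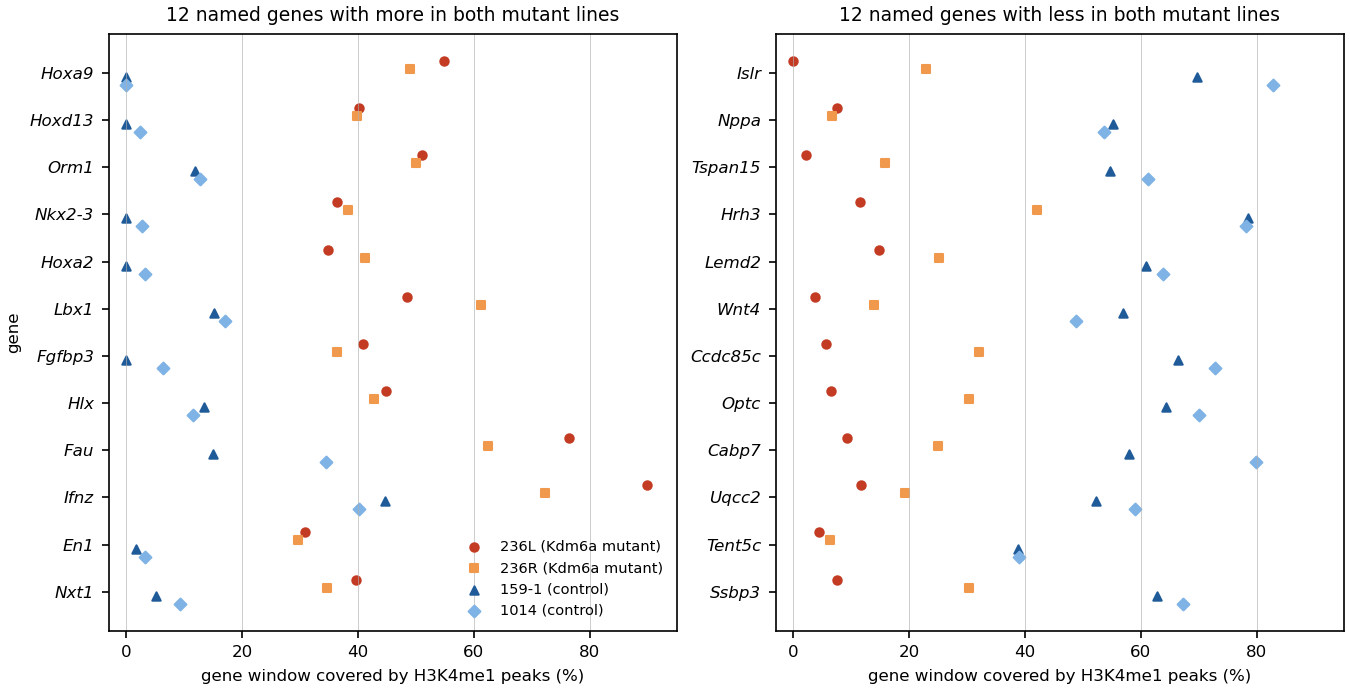
Percent of the gene window (body with 10 kb each side) covered by H3K4me1 peaks in each line, for the 12 named genes with more (left) and with less (right) in both mutant lines. At the genes with less, 236R lies between 236L and the control lines for most genes, while at the genes with more both mutant lines lie close together for most.

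Genes with less H3K4me1 came from several families. Islr (chromosome 9, 58156246 to 58159236), which encodes a secreted immunoglobulin-domain protein of stromal cells, had 0 kb in 236L and 5.26 kb in 236R, against 16 kb in 159-1 and 19 kb in 1014. Nppa had 1.61 and 1.42 kb in 236L and 236R, against 11.8 and 11.5 kb in 159-1 and 1014 (log2 difference -2.33, SE 0.37, limma adjusted p = 0.483). Nppa and Tent5c, a poly(A) polymerase gene with 1.86 and 2.60 kb against 15.9 and 16 kb, were the named genes at which both mutant lines were near the same low level. At Tspan15, which encodes a tetraspanin partner of the protease ADAM10, the lengths were 1.42 and 10.5 kb in 236L and 236R, against 36.0 and 40.4 kb in 159-1 and 1014. The Wnt ligand gene Wnt4 had 1.56 and 5.81 kb in the mutant lines, against 23.9 and 20.4 kb in the control lines. Hrh3, where the stretch before the start was covered more in the mutant lines, had less over its whole window, with 2.91 and 10.5 kb in 236L and 236R, against 19.6 kb in 159-1 and in 1014. Lemd2, which encodes a protein of the inner nuclear membrane, had 5.33 and 9.04 kb, against 21.8 and 22.9 kb.

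At the other named genes with less both mutant lines also lay below both control lines. Ccdc85c, a gene for an apical junction protein of neural progenitors, had 5.38 kb in 236L and 30.3 kb in 236R, against 62.6 kb in 159-1 and 68.6 kb in 1014. Ssbp3, a gene for a cofactor of LIM-homeodomain complexes, had 11.9 and 48.0 kb in 236L and 236R, against 99.2 and 106 kb in 159-1 and 1014. The proteoglycan gene Optc had 2.14 and 9.83 kb in the mutant lines, against 20.9 and 22.8 kb in the control lines. Cabp7, a gene for a calcium-binding protein, had 2.82 and 7.57 kb, against 17.5 and 24.2 kb, and Uqcc2, a gene for an assembly factor of respiratory complex III, had 3.65 and 6.02 kb, against 16.3 and 18.4 kb.

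The Hox clusters, which encode positional identity along the body axis, separated the groups at 3 of 4 clusters. At Hoxa, 10 of 12 genes (with the neighbour Evx1) had more and 0 had less, with 33.3 and 34.6% of the windows covered in 236L and 236R, against 0.543 and 0.525% in 159-1 and 1014. The median difference over the Hoxa genes was 35.1 percentage points, where all protein-coding genes had 0.367. Hoxa7 had 11.7 and 10.6 kb in 236L and 236R, and Hoxa10, a regulator of the reproductive tract, 13.7 and 13.0 kb, against 0 kb in both control lines at both genes. In the control lines 9 of these 12 genes had no cover at all. Hoxd gave 7 of 10 genes with more (with the neighbour Evx2) and 0 with less, at means of 21.2 and 28% in 236L and 236R, against 4.12 and 3.27% in 159-1 and 1014. Among its posterior genes were Hoxd12 at 9.04 and 8.70 kb, against 1.24 and 0.567 kb, and Hoxd11 at 8.02 and 9.21 kb, against 1.47 and 0 kb. Hoxc gave 8 of 9 genes with more and 0 with less, at 19.1 and 22.5%, against 4.36 and 0.427%. Hoxc6, a regulator of thoracic identity, had 10.3 and 8.03 kb in 236L and 236R, against 2.56 and 0 kb in 159-1 and 1014. With 236R as the only mutant line, 12 Hoxa, 9 Hoxc and 10 Hoxd genes had more and 0 had less. Windows within a cluster overlap, so neighbouring genes share peaks: the 12 Hoxa windows merge into 2 stretches and the Hoxc and Hoxd windows into 1 each.

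Hoxb was the exception. Its 10 genes had 12.9% of their windows covered in 236L and 34.7% in 236R, against 29.9% in 159-1 and 46.3% in 1014, with 1 gene each way, also in 236R alone. Hoxb1, a hindbrain patterning gene, had 0 and 2.78 kb in 236L and 236R, against 6.49 and 7.89 kb in 159-1 and 1014, and Hoxb13, a posterior gene, had 3.68 and 6.44 kb, against 1.21 and 0 kb. H3K27me3 followed another order of clusters: it covered 74.5 and 90.8% of the Hoxa windows in 236L and 236R, against 91.6 and 99.4% in 159-1 and 1014, and 79.7 and 25.1% of the Hoxb windows, against 14 and 14.5%. The Hoxb windows of 236L, low in H3K4me1, were thus the ones high in H3K27me3.

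**Figure D4:**
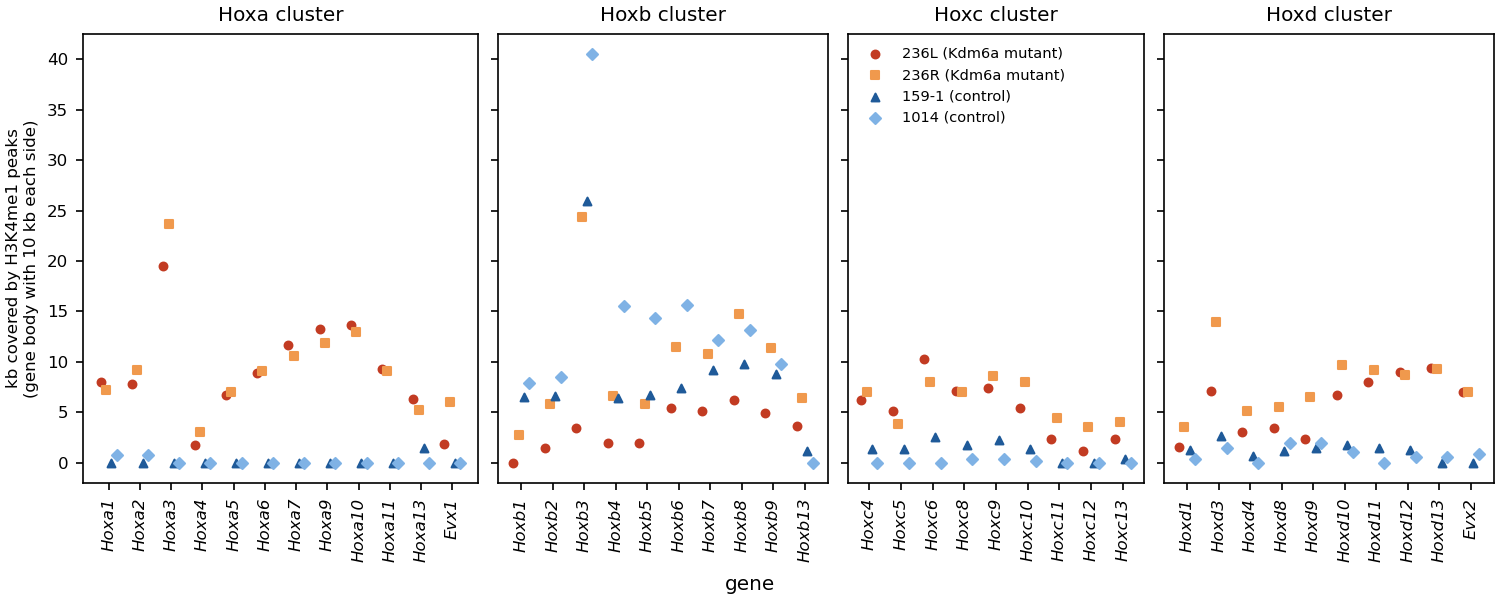
Length covered by H3K4me1 peaks in the window of each Hox gene and of Evx1 and Evx2, by line, with genes ordered by number within each cluster. In the Hoxa panel both control lines lie at or near 0 kb while the mutant lines reach 19.5 and 23.7 kb at Hoxa3, and in the Hoxb panel the lines mix.

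Other developmental factor families separated at fewer members. Of 19 Gata, T-box and Runx genes 5 had more and 1 had less (10 and 2 in 236R alone), with means of 16 and 14.5% in 236L and 236R, against 10.9 and 10.5% in 159-1 and 1014. As shares, 26.3% had more and 5.26% had less, where all genes had 5.3 and 7.45%, and in 236R alone 52.6 and 10.5%, where all genes had 10.1 and 12.6%. Their median difference was 4.62 percentage points. Gata6, a factor of endoderm and lung, had 7.66 and 4.57 kb in 236L and 236R, against 0 and 1.45 kb in 159-1 and 1014, and Tbx2, a lung mesenchyme factor, had 10.1 and 10.5 kb, against 7.14 and 5.16 kb. Gata5, its relative of heart and gut, had 0.934 and 3.33 kb, against 10.5 and 8.35 kb. Of 17 genes of the Pax network 3 had more and 2 had less (6 and 2 in 236R alone), which is 17.6 and 11.8% (35.3 and 11.8%). Pax3, a neural crest factor, had 11.5 and 11.3 kb in 236L and 236R, against 2.49 and 0.757 kb in 159-1 and 1014, and Pax2, a kidney factor, had 9.76 and 11.6 kb, against 1.16 and 3.14 kb. Pax8, which acts in thyroid and kidney, had 0 and 2.47 kb, against 5.72 and 7.54 kb.

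Neuroendocrine genes, the lineage of the tumour, had less at a few members and more at none when both mutant lines were required. In the 18 neuroendocrine transcription factors 0 had more and 2 had less (11.1%). In the 20 granule and peptide genes 0 had more and 3 had less (15.0%). All genes gave 5.3% with more and 7.45% with less. Mycl, the MYC family gene of classic small cell lung cancer, had 5.02 and 8.89 kb in 236L and 236R, against 17.3 and 20.7 kb in 159-1 and 1014. Lmo1, a gene for a LIM-only cofactor, had 1.04 and 17.7 kb, against 27 and 27.1 kb. Cadm1, a neural adhesion gene, had 11.5 and 55.5 kb in 236L and 236R, against 91.2 and 107 kb in 159-1 and 1014, and Syt13, a synaptotagmin gene, had 0.397 and 8.38 kb, against 13.1 and 16.4 kb. The lists depended on the line. With 236R alone 6 of the 18 factors had more (33.3%) and 2 had less (11.1%), where all genes had 10.1 and 12.6%. Their mean cover was 23.9% in 236R, against 20.4 and 20.3% in the control lines. With 236L alone 3 factors had more (16.7%) and 7 had less (38.9%), at a mean of 11.8%, where all genes had 29.7 and 15.2%. Of the 20 granule genes, 0 had more and 14 had less (70.0%) in 236L alone. In 236R alone 3 granule genes had more (15.0%) and 4 had less (20.0%).

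The 20 NEUROD1 neuronal factors had 4 members with more (20.0%) and 3 with less (15.0%), where all genes had 5.3 and 7.45%. In 236R alone 7 had more (35.0%) and 3 had less (15.0%), where all genes had 10.1 and 12.6%. Lhx9, a LIM homeobox gene, had 11.1 and 8.01 kb in 236L and 236R, against 2.33 and 1.36 kb in 159-1 and 1014. The proneural genes of this list split. Neurog2 had 6.80 and 5.92 kb, against 2.88 and 3.26 kb, whereas Neurog3, the factor of endocrine pancreas, had 0.568 and 6.42 kb in 236L and 236R, against 11.6 and 13.3 kb in 159-1 and 1014. Lhx3, a factor of the pituitary and motor neurons, had 2.73 and 6.19 kb, against 11.3 and 12.5 kb.

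The Notch pathway, which opposes neuroendocrine fate, had 2 members with more and 4 with less of 25 (2 and 5 in 236R alone). The share with more, 8.0%, compares with 5.3% of all genes and in 236R alone lay below the 10.1% of all genes, and the share with less was 16%, where all genes had 7.45%. Members with less included Maml3, a gene for a Notch coactivator, with 34.3 and 77.8 kb in 236L and 236R, against 151 and 186 kb in 159-1 and 1014, and the ligand gene Dll1, with 6.75 and 10.2 kb, against 14.1 and 13.9 kb. The fringe genes, whose enzymes modify Notch receptors, split: Mfng had 3.96 and 14.4 kb, against 20.8 and 19.5 kb, and Rfng had 8.00 and 6.76 kb, against 4.6 and 4.75 kb. Of 20 YAP and TEAD pathway genes 1 had more (Mob1a) and 3 had less, among them Vgll4, a gene for a TEAD repressor, with 33.6 and 42.4 kb, against 60.7 and 76.7 kb.

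Mesenchymal transition genes had 5 members with more (27.8%) and 1 with less (5.56%) of 18, where all genes had 5.3 and 7.45%. In 236R alone 6 had more (33.3%) and 1 had less (5.56%), where all genes had 10.1 and 12.6%. The extra cover lay mainly in 236L, where 19.6% of the windows were covered and 9.12% in 236R, against 8.63% in 159-1 and 7.90% in 1014. Prrx1, a mesenchymal homeobox gene, had 3.52 and 3.63 kb in 236L and 236R, against 0 kb in both control lines. Zeb2, which encodes a repressor of epithelial genes that myeloid cells also use, had 59.8 and 9.38 kb in 236L and 236R, against 3.63 and 1.35 kb in 159-1 and 1014, and Itga5, the fibronectin receptor gene, had 30.9 and 14.2 kb, against 10.5 and 8.42 kb. The exception was Snai1, a repressor gene of the same transition, with 2.21 and 3.73 kb in 236L and 236R, against 11.4 and 11.2 kb in 159-1 and 1014. Of 11 tuft cell genes 1 had more (Sox9, 9.09%) and 2 had less (18.2%). Pou2f3, the factor that defines tuft cells, had 0.681 kb in 236L and 11.7 kb in 236R, against 3.39 kb in 159-1 and 1.62 kb in 1014, and so was high in 236R alone.

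Antigen presentation genes were covered more in both mutant lines, most in 236L. Of 17 MHC class I pathway genes 6 had more (35.3%) and 0 had less, where all genes had 5.3 and 7.45%. In 236R alone 6 had more (35.3%) and 1 had less (5.88%), where all genes had 10.1 and 12.6%. The means were 29.0 and 17.8% in 236L and 236R, against 12.2 and 12.1% in 159-1 and 1014. Their median difference was 9.90 percentage points with both mutant lines and 1.57 with 236R alone. Tapbp, which encodes the chaperone that loads peptides, had 20.6 and 14.3 kb in 236L and 236R, against 8.96 and 9.51 kb in 159-1 and 1014, and H2-D1, a class I heavy chain gene with similar copies nearby, had 14.3 and 8.96 kb, against 3.56 and 6.03 kb. Tap1 and Psmb8 were the other 2 with the widest separation, and their windows overlap. Of 11 MHC class II genes 2 had more (H2-Ab1 and H2-Oa, 18.2%) and 0 had less. Macrophages carry both pathways, so the macrophage gene cover of 236L, given above, moved with these lists, and its part was not tested.

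**Figure D5:**
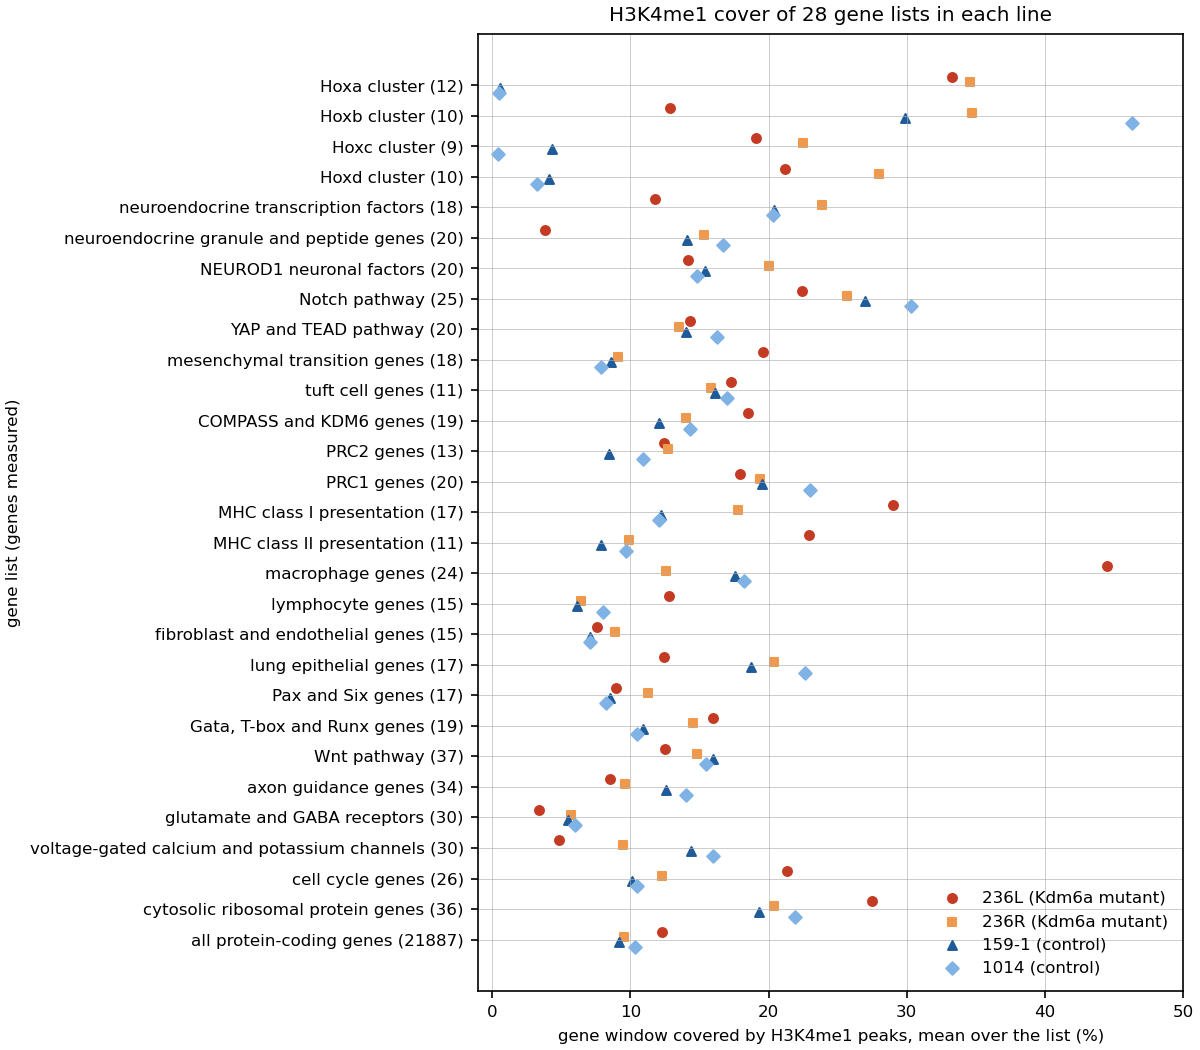
Mean percent of the gene windows covered by H3K4me1 peaks in each line for 28 gene lists and all protein-coding genes, with the number of genes measured in brackets. In the Hoxa, Hoxc and Hoxd rows both mutant lines lie right of both control lines, and in the macrophage row 236L stands alone at 44.5%.

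Ion channels, guidance receptors and Wnt genes had more members with less than the 7.45% of all genes. Of 30 voltage-gated calcium and potassium channel genes 12 had less and 2 had more, with means of 4.81 and 9.49% in 236L and 236R, against 14.4 and 16% in 159-1 and 1014. In 236R alone 12 had less and 9 had more, where all genes had 12.6 and 10.1%. Both shares of the channel genes lay above those of all genes, so in 236R the list was raised in both directions. These genes are long, and long genes were common among all genes with less. Kcnn3, a calcium-activated potassium channel gene, had 37.7 and 31.4 kb in 236L and 236R, against 78.3 and 98.7 kb in 159-1 and 1014. At Cacna1h, a T-type calcium channel gene, 236L and 236R had 2.56 and 34.4 kb, against 48.0 and 50.7 kb in 159-1 and 1014. Of 34 axon guidance genes 8 had less (23.5%) and 0 had more, and in 236R alone 12 had less (35.3%) and 5 had more (14.7%). Ephb2, an ephrin receptor gene, had 4.43 and 54.4 kb in 236L and 236R, against 108 and 119 kb in 159-1 and 1014, and the netrin receptor gene Unc5b had 8.03 and 26.0 kb, against 45.7 and 48.6 kb.

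Of 37 Wnt pathway genes 8 had less (21.6%) and 4 had more (10.8%), where all genes had 7.45 and 5.3%. In 236R alone 8 had less (21.6%) and 6 had more (16.2%), where all genes had 12.6 and 10.1%. Beside Wnt4, the ligand gene Wnt11 had 5.51 and 8.52 kb in 236L and 236R, against 13.3 and 13.9 kb in 159-1 and 1014, and Wnt3 had 2.30 and 12.6 kb, against 19.6 and 23.3 kb. The receptor gene Fzd8 had more, with 5.20 and 3.79 kb, against 0.852 and 0.585 kb. Of 30 glutamate and GABA receptor genes 3 had less (10.0%) and 0 had more. Among those with less was Grm4, a metabotropic receptor gene, with 3.83 and 21.9 kb, against 33.6 and 32.9 kb.

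Genes of the chromatin machinery itself separated at a minority of members in each list. The 19 COMPASS and KDM6 genes write H3K4 methylation or remove methyl groups from H3K4 and H3K27. Of these, 4 had more (21.1%) and 2 had less (10.5%), where all genes had 5.3 and 7.45%. In 236R alone 5 had more (26.3%) and 3 had less (15.8%), where all genes had 10.1 and 12.6%. Men1, which encodes the menin subunit of KMT2A complexes, had 9.92 and 8.43 kb in 236L and 236R, against 1.63 and 4.67 kb in 159-1 and 1014, and lies on chromosome 19. Kdm1a, the gene for an H3K4 demethylase, had 5.28 and 6.83 kb in 236L and 236R, against 13.3 and 14.5 kb in 159-1 and 1014. Setd1a, an H3K4 methyltransferase gene, had 9.45 and 6.72 kb, against 2.97 and 2.63 kb. Kdm6b, the gene for the related H3K27 demethylase, had 17.0 and 18.2 kb, against 12.6 and 14.2 kb. Of 13 PRC2 genes 0 had more and 1 had less (7.69%, near the 7.45% of all genes), the methyltransferase gene Ezh1, with 4.24 and 7.32 kb, against 10.8 and 10.3 kb. Of 20 PRC1 genes 1 had more (Pcgf1, 5.0%) and 3 had less (15.0%), among them Phc2, with 18.2 and 31.0 kb in 236L and 236R, against 58.2 and 60.8 kb in 159-1 and 1014.

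Growth genes differed mostly in 236L. Of 26 cell cycle genes 4 had more (15.4%) and 0 had less, where all genes had 5.3 and 7.45%. The counts were the same in 236R alone, where 10.1% of all genes had more and 12.6% had less. The means were 21.3 and 12.3% in 236L and 236R, against 10.1 and 10.5% in 159-1 and 1014. Ccnd2, a G1 cyclin gene, had 13.1 and 6.48 kb, against 2.20 and 0 kb. Of 36 cytosolic ribosomal protein genes, counted as a housekeeping set, 3 had more (8.33%) and 1 had less (2.78%), where all genes had 5.3 and 7.45%. The one with less was Rpl18, with 11.9 and 11.1 kb in 236L and 236R, against 15.9 and 17.5 kb in 159-1 and 1014.

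The medians of the lists followed their counts only in part. Against 0.367 percentage points over all genes, the median difference in window cover was 16.2 for Hoxc, 18.6 for Hoxd and -14.4 for Hoxb. It was -3.38 for granule genes, -4.43 for Notch genes and -1.90 for ion channels, but 0.227 for Wnt genes and -0.295 for axon guidance genes, where the members with less are a minority. Cell cycle genes had 6.11, MHC class II genes 7.92 and mesenchymal genes 4.45. With 236R alone, where all genes had 0, the medians were 20.0 for Hoxc and 22.3 for Hoxd, while those of granule genes (-0.536), Notch genes (-1.49), ion channels (-0.802), cell cycle genes (0.896) and mesenchymal genes (1.14) lay close to 0. Medians that were as large or larger with 236R alone included those of Hoxa (37.7), of the Gata, T-box and Runx genes (6.30), of the neuroendocrine factors (4.20, where both mutant lines gave 0.384) and of the NEUROD1 factors (3.59, where both gave 2.46). In 236R alone 10.1% of all genes had more and 12.6% had less. There the members with more and with less numbered 2 and 4 for YAP and TEAD genes (10.0 and 20.0%) and 2 and 4 for tuft genes (18.2 and 36.4%). For MHC class II genes they numbered 2 and 2 (18.2% each), and for COMPASS and KDM6 genes 5 and 3 (26.3 and 15.8%). They numbered 1 and 1 for PRC2 genes (7.69% each) and 3 and 4 for PRC1 genes (15.0 and 20.0%). For glutamate and GABA receptor genes they numbered 5 and 3 (16.7 and 10.0%), and for ribosomal protein genes 4 and 5 (11.1 and 13.9%).

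MicroRNA genes gave the same 2 kb call in windows of 10 kb around the hairpin. Of 1005 hairpins 40 (3.98%) had more and 58 (5.77%) had less, and in 236R alone 66 (6.57%) had more and 87 (8.66%) had less. The mature strands below belong to hairpins that separated the groups and were chosen after their values were seen. They come from RefSeq (GRCm38.p6), are written 5′ to 3′, and have the seed, bases 2 to 8, which pairs with target mRNAs, in capitals.
mmu-miR-196b-5p: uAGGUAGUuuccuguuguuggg
mmu-miR-196a-5p: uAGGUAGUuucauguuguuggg
mmu-miR-21a-5p: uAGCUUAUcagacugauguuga
mmu-miR-142a-3p: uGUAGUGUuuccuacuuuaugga
mmu-miR-9-5p: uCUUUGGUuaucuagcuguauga
mmu-miR-218-5p: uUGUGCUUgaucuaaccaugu
mmu-miR-139-5p: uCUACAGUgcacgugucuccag

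The miR-196 strands share the seed agguagu and lie in Hox clusters. Mir196b (chromosome 6, 52230081 to 52230165, beside Hoxa9) had 9.63 and 8.65 kb in 236L and 236R, against 0 kb in both control lines, and Mir196a-2, in the Hoxc cluster, had 6.08 and 7.65 kb, against 1.79 and 0.400 kb. Mir196a-1, the Hoxb copy with the same mature strand, had 1.05 and 6.49 kb, against 5.34 and 4.65 kb, and so did not separate, like the Hoxb genes around it. Mir21a, a growth-promoting miRNA gene that lies inside the annotated gene Vmp1, had 13.8 and 12.6 kb in 236L and 236R, against 5.08 and 6.61 kb in 159-1 and 1014. Mir142, a miRNA gene of blood cells, had 12.0 and 7.03 kb, against 2.06 and 0.275 kb. Mir9-2, a neural miRNA gene, had 5.38 and 6.28 kb, against 2.01 and 2.28 kb.

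Mir218-2, a motor neuron miRNA in Slit3, had 0 kb in both mutant lines, against 7.33 kb in 159-1 and 7.63 kb in 1014. Mir139, in Pde2a, had 0 and 11.6 kb in 236L and 236R, against 17.9 and 18.4 kb in 159-1 and 1014. Mir375, a miRNA gene of islet and neuroendocrine cells, had 2.80 kb in 236L and 12.2 kb in 236R, against 10.5 kb in 159-1 and 11.7 kb in 1014. Only 236L lay below the control lines, as at Chga, where 236R lay above both (15.1 kb, against 11.3 and 11.9 kb). Mir200a, which keeps cells epithelial, had 0 and 11.4 kb in 236L and 236R, against 10.7 and 12.0 kb.

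H3K4me1 at sites of the other marks, chosen in the control lines, followed the same division between gene ends and distal sites. At 33194 bins near gene ends with H3K4me2 in both control lines, H3K4me1 lay at 43.2 and 46.3% in 236L and 236R, against 34.0 and 31.5% in 159-1 and 1014. At 34238 distal bins with H3K4me2 in both control lines, the shares were 28.5% in 236L and 70.0% in 236R, against 70.4% in 159-1 and 71.1% in 1014, so at bins chosen in the control lines 236R lay next to them and 236L far below, whereas at bins chosen for H3K4me2 in 236L, given above, 236L was highest. Among the bins near gene ends with H3K4me2 in both control lines, the mutant lines had the higher shares both with and without KDM6A. Where both control lines had a KDM6A peak (8750 bins), H3K4me1 lay at 34.7 and 30.2% in 236L and 236R, against 19.7 and 17.8% in 159-1 and 1014, and where neither control line had a KDM6A peak (8483 bins), at 53.5 and 57.3%, against 43.8 and 42.0%. At distal bins with both H3K4me2 and KDM6A in both control lines (5968 bins), H3K4me1 lay at 30.5 and 77.7% in 236L and 236R, against 72.7 and 71.9% in 159-1 and 1014. Of the 32340 bins with H3K27me3 in both control lines, 12.7 and 13.5% carried H3K4me1 in 236L and 236R, against 7.29 and 4.95% in 159-1 and 1014, and both mutant lines lay above both control lines.

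Of the 4 widest H3K4me1 peaks of each line, those on chromosome 8 and at Zmiz1 recurred in all lines. The widest in each list lay on chromosome 8 (123537376 to 123624617 in 236L), with a width of 87.2 and 87.0 kb in 236L and 236R, against 87.0 and 86.9 kb in 159-1 and 1014, and holds no protein-coding gene of the RefSeq table. Zmiz1, a gene for a transcriptional coactivator, carried a peak of 82.4 and 46.6 kb in 236L and 236R, against 46.2 and 80.8 kb in 159-1 and 1014. Merged peaks of at least 10 kb numbered 735 in 236L and 316 in 236R, against 470 in 159-1 and 739 in 1014, so the groups overlapped (exact two-sided permutation p = 0.667). Some chromosomes differed in a single line: chromosome 8 had 7.05 Mb of cover in 236L and 3.50 Mb in 236R, against 7.44 and 8.26 Mb in 159-1 and 1014, and chromosome 3 had 4.43 and 2.58 Mb, against 4.51 and 5.41 Mb. Genes on these chromosomes were not treated apart, and copy number was not measured here.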

How the data were processed

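Tumour lines were profiled by ChIP-seq, with Bowtie2 2.4.2 and MACS3 3.0.0a7 on mm10 named in the submitters' processing notes. Of the calling threshold, control track and duplicate handling nothing is stated in those notes. Each deposited list belongs to 1 library and gives, for each broad peak, the authors' fold (a linear ratio). It also holds a −log10 p-value computed by the authors. A −log10 q-value, at lowest 1.02, completes each deposited line. These scores only ranked or filtered peaks of the same list. The 71 peaks on unplaced contigs were set aside and the rest merged. Cover was measured in 1 kb bins (marked at 50%), in windows of 21887 protein-coding genes (body with 10 kb each side, RefSeq, GRCm38.p6) and within 2.5 kb of gene ends. The gene table has no strand, so both ends were used, and the promoter table gave strands for starts.

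Lines of the mutant and control group (2 each) were compared by separation (2 kb), by an exact permutation test for values per line, and by limma 3.58.1 with trend on log2(kb + 1), for genes with a mean of at least 1 kb, in R 4.3.3. The limma step and the cover step were tested on simulated data. Named genes are the 12 per direction with the largest separation in percentage points of the window, without predicted genes and, of overlapping windows, the first only, plus up to 4 separated members per list and the cell type markers. A few of these are not reported here. The 28 lists hold 555 genes, and 2 tuft cell genes and 1 MHC class II gene had no match. Members and lists were chosen with earlier results of these data known. The H3K4me2 lists of 159-1 and 1014 follow the sample labels, while their deposited names carry the other line. Alternatives were a stricter q, other windows, separations, bin covers and pseudocounts, no filter, autosomes only, equal covered length and leaving out each line. Depth is unknown, so no interval or floor was given.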

Additional observations from a re-analysis of the deposited data

How the results depend on the processing

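The share of cover near gene ends and the peak width kept the sign of their differences under every alternative run, but not their size: from 113 bp the width difference came to 25.5 bp with peaks of q at most 0.001, and from 7.46 points the share difference came to 3.75 within 1 kb of a gene end. Total cover differed by -20.1 to -4.24 Mb when each line was left out. Total cover turned to 0.677 Mb more in mutant lines with peaks of q at most 0.001 alone, and the cause was not tested. Leaving out each line in turn gave 1721 to 6502 genes with more H3K4me1 and 1909 to 3337 with less, 10593 to 78289 mutant-only bins and 30768 to 63927 control-only bins, and 0 to 902 genes higher and 0 to 601 lower by limma. The highest of each were reached without 236R, where 236L alone stood for the mutant lines and was assumed to vary like the control lines. Without 236L, the counts were 2214 genes with more, 2768 with less and 27586 mutant-only bins, and limma called 0 genes. Genes with more numbered 2809 with 50 kb on each side of the body, 283 in the body alone, 2630 at a separation of 1 kb and 139 at 5 kb, and genes with less 800 at 5 kb. Mutant-only bins numbered 4731 at 80% cover. Without the filter on low cover limma called 25 genes higher and 5 lower. Of the values of the main results 61 kept their direction or, for counts, stayed equal or within 1.5 times, 21 counts moved further and 1 difference reversed. The 61 include limma counts that stayed at 0. Among the values for gene lists, bins near gene ends and miRNA hairpins without 236L, 36 stayed equal or within 1.5 times and 24 moved further. No paired analysis was possible because the labels give no replicate numbers that tie a mutant line to a control line. The number of lines, 2 per group, and the unknown depth limit what could be detected.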
